A study of Homo sapiens with 4 samples.

Results

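The 10 genes described here encode enzymes, and 1 enzyme-activating protein, that make or break down eicosanoids and platelet-activating factor (PAF). They are ALOX5, ALOX5AP, LTA4H, LTC4S, PTGS1, PTGS2, HPGDS, TBXAS1, PLA2G4A and PLA2G7. They were taken by gene symbol from a table of 58302 gene rows, and all 10 had a row. The table holds RNA sequencing values of 2 libraries of differentiated (Diff) and 2 libraries of undifferentiated (UnDiff) BLaER1 cells. BLaER1 is a human B cell leukaemia line known for carrying the transcription factor C/EBPα in a fusion with the oestrogen receptor's hormone-binding part, so cells of both stages have the fusion gene. Diff cells had been kept for 5 to 6 days with IL-3, M-CSF (CSF-1) and 100 nM β-estradiol, with 10 ng/ml written once for the cytokines, and UnDiff cells are taken as untreated from their stage label, since the protocol text is the same for both stages. All agents were given together, and their effects cannot be told apart. Whether same-stage libraries stem from separate cultures is not stated, so p-values reflect the spread among these 4 libraries and may be technical in part.

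Eicosanoids are signalling lipids made from arachidonic acid, which the cytosolic phospholipase A2 releases from membranes. In the leukotriene branch, 5-lipoxygenase (ALOX5), presented with its substrate by the membrane protein FLAP (ALOX5AP), makes the unstable leukotriene A4. LTA4H turns it into the neutrophil attractant leukotriene B4, and LTC4S joins it to glutathione to give the first cysteinyl leukotriene. In the prostanoid branch, the cyclooxygenases PTGS1 and PTGS2 make prostaglandin H2, which TBXAS1 converts to thromboxane A2 and HPGDS to prostaglandin D2. PAF is a phospholipid mediator that the secreted hydrolase PLA2G7 inactivates. Monocytes and macrophages are known producers of leukotrienes, thromboxane and PAF.

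Promoter sequences are printed for ALOX5AP, LTC4S, PTGS1 and TBXAS1, which were higher in Diff cells, and for PTGS2, which stayed low. HPGDS, PLA2G4A and PLA2G7 stayed low too and are not printed, so PTGS2 does not stand for the low genes. RefSeq (GRCh38.p14) gave a window of 250 bases before to 50 bases after the start for 9 of the 10 genes, all but ALOX5, 11 windows in all. The windows are chr13:30713235-30713534 for ALOX5AP, chr5:179793736-179794035 for LTC4S, chr9:122370283-122370582 for the upstream start of PTGS1 and chr7:139829014-139829313 for TBXAS1, all on the plus strand, and chr1:186680374-186680673 for PTGS2 on the minus strand. Each is printed 5′ to 3′ along its gene, and capitals mark exact matches on either strand to the C/EBP letters TTGCNNAA, the PU.1 letters AGGAAGT, the GC box GGGCGG or the TATA box TATAAA.
ALOX5AP: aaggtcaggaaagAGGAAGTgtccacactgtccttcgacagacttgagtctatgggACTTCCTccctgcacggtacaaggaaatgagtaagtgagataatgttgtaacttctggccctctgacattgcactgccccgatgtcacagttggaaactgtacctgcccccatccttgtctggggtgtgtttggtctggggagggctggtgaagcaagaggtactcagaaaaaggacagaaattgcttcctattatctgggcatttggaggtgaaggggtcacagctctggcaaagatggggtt
LTC4S: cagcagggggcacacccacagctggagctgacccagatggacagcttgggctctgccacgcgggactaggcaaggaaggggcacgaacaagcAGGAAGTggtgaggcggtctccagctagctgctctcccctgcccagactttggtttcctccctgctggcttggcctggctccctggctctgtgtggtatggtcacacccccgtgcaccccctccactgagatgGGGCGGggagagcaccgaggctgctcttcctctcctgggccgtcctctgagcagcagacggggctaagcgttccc
PTGS1: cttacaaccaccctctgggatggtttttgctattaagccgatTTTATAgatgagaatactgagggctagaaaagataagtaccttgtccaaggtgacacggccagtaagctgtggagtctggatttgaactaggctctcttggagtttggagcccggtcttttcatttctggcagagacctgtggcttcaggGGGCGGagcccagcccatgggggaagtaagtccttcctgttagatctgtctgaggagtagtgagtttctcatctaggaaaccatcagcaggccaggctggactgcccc
TBXAS1: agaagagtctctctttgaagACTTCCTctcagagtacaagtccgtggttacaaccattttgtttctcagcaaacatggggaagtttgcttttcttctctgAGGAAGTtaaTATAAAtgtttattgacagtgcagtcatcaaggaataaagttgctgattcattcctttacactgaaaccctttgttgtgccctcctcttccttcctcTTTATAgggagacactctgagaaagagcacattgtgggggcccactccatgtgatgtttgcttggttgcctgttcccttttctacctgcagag
PTGS2: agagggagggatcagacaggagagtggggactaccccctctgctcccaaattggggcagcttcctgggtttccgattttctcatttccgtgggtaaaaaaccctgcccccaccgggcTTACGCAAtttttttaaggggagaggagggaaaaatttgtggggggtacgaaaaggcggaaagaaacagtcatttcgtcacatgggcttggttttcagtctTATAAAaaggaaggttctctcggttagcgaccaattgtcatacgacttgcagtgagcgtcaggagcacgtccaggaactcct

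The PU.1 letters occurred in the windows of 5 of the 9 genes, namely ALOX5AP, LTC4S, TBXAS1, LTA4H and HPGDS. PU.1, a transcription factor of myeloid cells and B cells, can bind such letters, but they are not specific to it. The letters occurred in 8.24% of all 35116 RefSeq promoter windows, a share per window and not per gene. LTA4H and HPGDS hold them but were not called higher in the stage comparison described below, whereas PTGS1 was called higher and lacks them. ALOX5AP held them at -237 to -231 and, on the other strand, at -194 to -188. TBXAS1 likewise held a pair, at -150 to -144 and on the other strand at -230 to -224. The C/EBP letters were found in 1 gene, PTGS2, at -133 to -126 on the other strand, against 10.5% of all windows. GC box letters were present in LTC4S, PTGS1 and PLA2G7 and in 45.0% of all windows. TATA box letters were present in PTGS1, PTGS2, TBXAS1 and HPGDS and in 11.5% of all windows, and those of PTGS2 and HPGDS began at -32 and -28. A match describes letters in the window and is not a measured binding site. The motifs do not overlap each other in the printed windows. The RefSeq starts used for TBXAS1 and LTA4H lie inside the longer gene bodies of GENCODE release 29, and no start site was measured here.

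**Figure D1:**
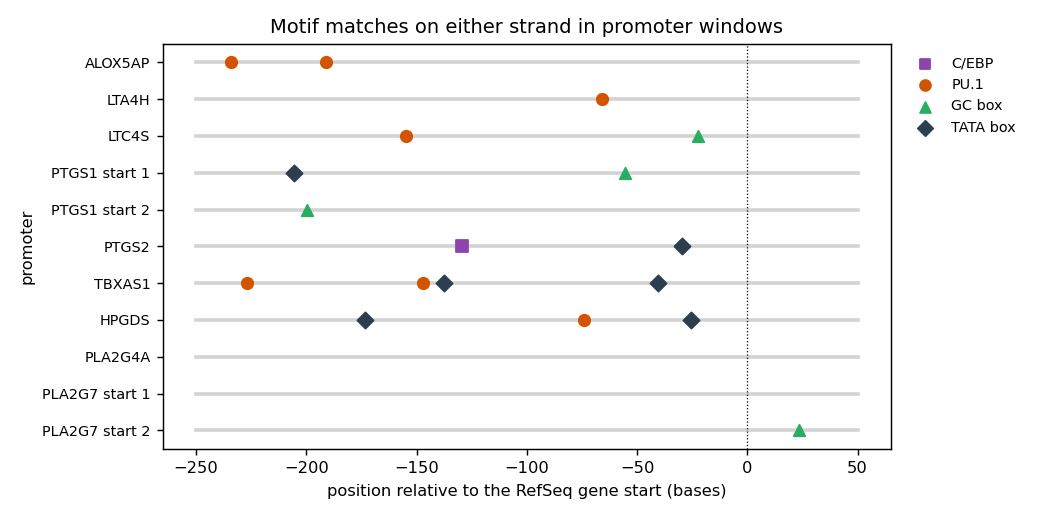
Exact motif matches on either strand in the 11 RefSeq promoter windows of 9 enzyme genes, plotted as distance in bases from the gene start (dotted line). PU.1 letters lie in ALOX5AP, LTA4H, LTC4S, TBXAS1 and HPGDS, and C/EBP letters in PTGS2.

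Values are TPM, a transcript abundance per gene length scaled to the same sum in every library, which keeps no sequencing depth. Genes that reached 1 TPM in 2 or more libraries were compared between stages with limma on log2(TPM + 1), and a gene is referred to as called where the Benjamini-Hochberg adjusted p over all 10180 tested genes was below 0.05. Protein-coding genes held 12.2% and 13.5% of the summed TPM in the Diff libraries and 23.0% and 15.6% in the UnDiff libraries. The UnDiff libraries lay apart from each other, replicate 1 exceeding replicate 2 by a median of 0.505 (log2) over tested genes, against -0.063 between the Diff libraries. Fewer cells of a type and less RNA per cell cannot be told apart in such bulk samples.

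Of the 10 genes, 6 passed the filter on low values. Among them, 5 were called higher in Diff cells (ALOX5, ALOX5AP, LTC4S, PTGS1 and TBXAS1), 0 were called lower and LTA4H was not called (limma). At an unadjusted p below 0.05 the counts were the same, 5 higher and 0 lower. Over all tested genes 18.6% were called higher and 22.8% lower, and over tested protein-coding genes 17.4% and 23.0%. All 5 called genes averaged below 1 TPM in UnDiff cells and passed the filter through the Diff libraries. Of the 1467 tested genes with such an UnDiff mean, 76.7% were called higher, so calls of this kind were common. PTGS2, HPGDS, PLA2G4A and PLA2G7 stayed below 1 TPM in every library and were not tested.

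**Figure D2:**
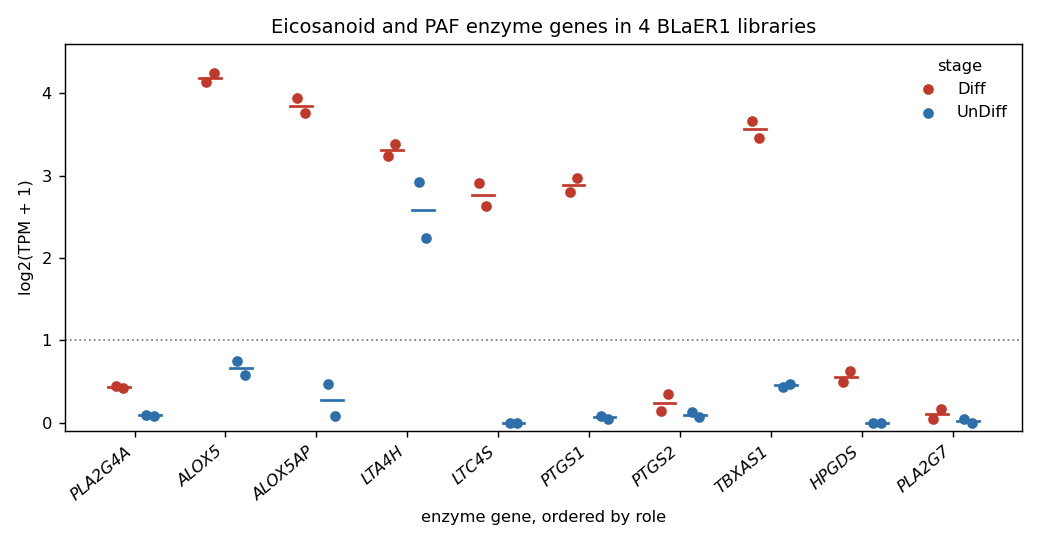
Level of each of the 10 enzyme genes as log2(TPM + 1), with 1 point per library, a bar at the mean of the 2 libraries of a stage and a dotted line at 1 TPM. ALOX5, ALOX5AP, LTC4S, PTGS1 and TBXAS1 lie above the line in Diff and below it in UnDiff libraries, LTA4H lies above it in all 4, and the other 4 genes lie below it throughout.

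The leukotriene-forming pair ALOX5 and ALOX5AP rose together to the highest levels among the 10 genes. ALOX5 (ENSG00000012779), the 5-lipoxygenase, had 16.63 and 17.96 TPM in Diff cells, against 0.68 and 0.50 TPM in UnDiff cells. The Diff libraries were both far above the UnDiff libraries and differed little from each other. The log2 difference was 3.53 ± 0.380 (SE; 95% interval 2.70 to 4.35; limma adjusted p = 1.5e-05). In the Diff libraries ALOX5 exceeded 91.5% and 91.3% of the tested protein-coding genes, and in the UnDiff libraries 7.53% and 9.39%.

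ALOX5AP (ENSG00000132965), the FLAP protein without which cells make little leukotriene, had 14.41 and 12.53 TPM in Diff cells, against 0.39 and 0.06 TPM in UnDiff cells. The stages did not overlap, and the UnDiff libraries differed severalfold at these low values. The log2 difference was 3.57 ± 0.382 (SE; 95% interval 2.75 to 4.40; limma adjusted p = 1.41e-05). Within a library the ratio of ALOX5 to ALOX5AP, which no scaling of whole libraries can change, was 1.15 and 1.43 in Diff cells and 1.74 and 8.33 in UnDiff cells. The transcripts of the enzyme and its partner were thus of similar abundance in both Diff libraries.

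The enzymes after leukotriene A4 behaved differently from each other. LTC4S (ENSG00000213316), which commits the pathway to cysteinyl leukotrienes, was listed at 6.52 and 5.19 TPM in Diff cells and at 0 in both UnDiff libraries (limma adjusted p = 1.83e-05). No fold is given against a listed 0. LTA4H (ENSG00000111144), the hydrolase of the leukotriene B4 step, had 8.41 and 9.49 TPM in Diff cells, against 6.58 and 3.75 TPM in UnDiff cells. The stages did not overlap for LTA4H, as for the 31.0% of tested genes whose Diff libraries both lay above, but the UnDiff libraries were wide apart. LTA4H averaged 8.95 ± 0.764 TPM in Diff and 5.17 ± 2.00 TPM in UnDiff cells (SD, n = 2 each), and its log2 difference of 0.73 ± 0.398 (SE; 95% interval -0.13 to 1.59) was not called (limma adjusted p = 0.164).

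Whether LTA4H was called depended on how libraries were scaled. Median-of-ratios scaling called it higher (log2 difference 0.93, limma adjusted p = 0.00849), as did quantile normalization (0.87, adjusted p = 0.0117), rescaling without the most abundant RNAs (0.96, adjusted p = 0.0444) and rescaling over protein-coding genes (1.38, adjusted p = 0.00303). It was also called without UnDiff replicate 1 (1.06, adjusted p = 0.0202; the lone UnDiff library is then assumed to vary like the Diff pair), whereas the log2 difference was 0.39 without UnDiff replicate 2 (adjusted p = 0.211). Within a library, ALOX5 stood at 1.98 and 1.89 times the level of LTA4H in Diff cells and at 0.103 and 0.133 times in UnDiff cells. LTC4S stood at 0.775 and 0.547 times the level of LTA4H in Diff cells.

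In the prostanoid branch the constitutive cyclooxygenase and thromboxane synthase rose, and the inducible cyclooxygenase stayed low. PTGS1 (ENSG00000095303), the cyclooxygenase of resting cells and platelets, had 6.00 and 6.83 TPM in Diff cells, against 0.06 and 0.03 TPM in UnDiff cells. The Diff libraries were close to each other and the UnDiff libraries near 0. The log2 difference was 2.82 ± 0.318 (SE; 95% interval 2.14 to 3.51; limma adjusted p = 2.07e-05). GENCODE release 29 places a short non-coding gene, AL162424.1, inside PTGS1 on the same strand. It was listed at 1.03 and 1.09 TPM in Diff cells and at 0 in both UnDiff libraries, and reads of the overlap could be split between these genes.

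PTGS2 (ENSG00000073756), the cyclooxygenase known for its induction by inflammatory stimuli, had 0.10 and 0.27 TPM in Diff cells, against 0.09 and 0.05 TPM in UnDiff cells. These values were below the filter in all 4 libraries. With no filter on low values the log2 difference was 0.14 (limma adjusted p = 0.49). PTGS1 exceeded PTGS2 by 60 and 25.3 times within the Diff libraries, whereas within the UnDiff libraries, where both were near 0, its level was 0.667 and 0.600 times that of PTGS2.

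TBXAS1 (ENSG00000059377), thromboxane synthase, had 11.68 and 10.01 TPM in Diff cells, against 0.35 and 0.39 TPM in UnDiff cells. The stages were well separated, and the libraries within each were close. The log2 difference was 3.11 ± 0.372 (SE; 95% interval 2.30 to 3.91; limma adjusted p = 3.19e-05). Its level was 1.95 and 1.47 times that of PTGS1 in the Diff libraries. TBXAS1 overlaps the kinase gene HIPK2 on the other strand in GENCODE release 29. HIPK2 had 5.28 and 5.66 TPM in Diff cells and 3.77 and 2.19 TPM in UnDiff cells, and since the strand setting of the counting is not given, reads of the overlap may count for either gene.

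HPGDS (ENSG00000163106), the prostaglandin D2 synthase of mast cells, Th2 cells and some macrophages, was listed at 0.41 and 0.54 TPM in Diff cells and at 0 in both UnDiff libraries. It was low in Diff cells, where TBXAS1 stood at 28.5 and 18.5 times its level. With no filter on low values HPGDS was not called (limma adjusted p = 0.0772). Between TBXAS1 and HPGDS, which share prostaglandin H2, thromboxane synthase was therefore the more abundant transcript in both Diff libraries. Other genes of prostanoid synthesis are given below, of which PTGES3 had 8.62 and 8.99 TPM in Diff cells.

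The phospholipases at both ends of the pathway were scarce at both stages. PLA2G4A (ENSG00000116711), the cytosolic phospholipase A2 that releases arachidonic acid, had 0.36 and 0.34 TPM in Diff cells, against 0.07 and 0.06 TPM in UnDiff cells. The stages did not overlap, yet every value was below 1 TPM. With no filter on low values the log2 difference was 0.34 (limma adjusted p = 0.131). PLA2G7 (ENSG00000146070), the secreted PAF acetylhydrolase known as a macrophage product, had 0.03 and 0.12 TPM in Diff cells, against 0.03 and 0 TPM in UnDiff cells. The libraries of the stages overlapped, and with no filter on low values PLA2G7 was not called (limma adjusted p = 0.49).

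Levels per gene length can be ordered within a stage. In Diff cells the mean ran, from high to low, in the order ALOX5, ALOX5AP, TBXAS1, LTA4H, PTGS1, LTC4S, HPGDS, PLA2G4A, PTGS2 and PLA2G7. Neighbours in this order overlapped between libraries for PTGS1 and LTC4S and for PTGS2 and PLA2G7 alone. In UnDiff cells LTA4H led, followed by ALOX5, TBXAS1 and ALOX5AP, with the remaining 6 genes below 0.1 TPM in both libraries. TBXAS1 and ALOX5AP overlapped there.

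The make-up of the pathway's transcripts differed between stages. The 10 genes summed to 64.55 and 63.28 TPM in Diff cells, against 8.25 and 4.84 TPM in UnDiff cells. LTA4H held 13.0% and 15.0% of this sum in the Diff libraries and 79.8% and 77.5% in the UnDiff libraries. ALOX5 with ALOX5AP formed the leading pair in Diff cells, ALOX5 at 25.8% and 28.4% in Diff against 8.24% and 10.3% in UnDiff libraries, and ALOX5AP at 22.3% and 19.8% in Diff against 4.73% and 1.24% in UnDiff libraries. TBXAS1 held 18.1% and 15.8% in Diff cells and 4.24% and 8.06% in UnDiff cells.

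**Figure D3:**
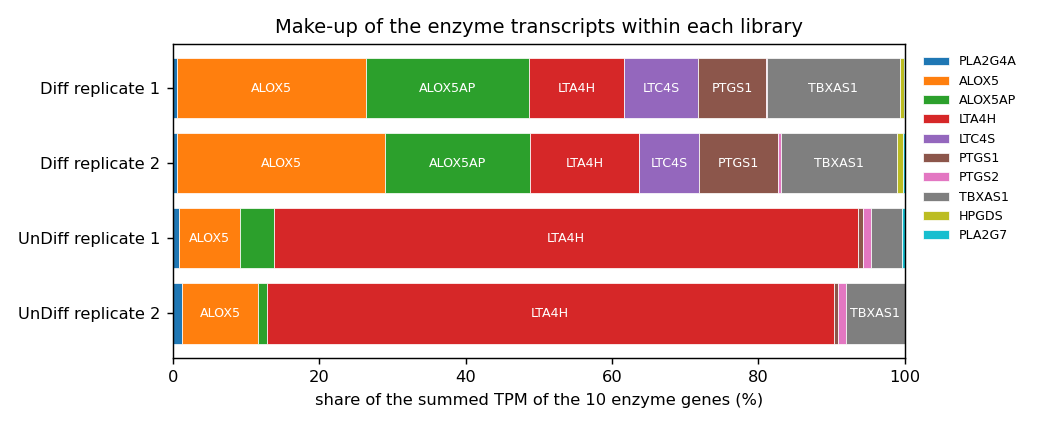
Share (%) of each enzyme gene in the summed TPM of the 10 genes within each library, Diff above UnDiff. LTA4H takes 79.8% and 77.5% of the sum in the UnDiff libraries, whereas in the Diff libraries 6 genes each take between 8.20% and 28.4%.

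Scaling the table to protein-coding genes alone, which removes the share of non-coding RNA, kept the direction of every tested enzyme gene and raised the differences. Over all tested genes the median difference itself moved, to 0.37 on the log2 scale after this rescaling against -0.14 as deposited, and the values below are to be read against that shift. ALOX5 then had 136.4 and 133.2 TPM in Diff cells, against 2.96 and 3.21 TPM in UnDiff cells, a log2 difference of 5.06 (limma adjusted p = 1.82e-05). HPGDS and PLA2G4A passed the filter on this scale. HPGDS was listed at 3.36 and 4.01 TPM in Diff cells and at 0 in UnDiff cells (adjusted p = 0.000786), and PLA2G4A had 2.95 and 2.52 TPM in Diff cells, against 0.304 and 0.385 TPM in UnDiff cells (log2 difference 1.47, adjusted p = 0.00505). With LTA4H this made 8 of the 10 genes called higher, against 34.3% of the 11945 genes tested on that scale. These 8 were all the enzyme genes tested there. HPGDS, LTC4S, PTGS1 and PLA2G4A still averaged below 1 TPM in UnDiff cells and passed the filter through the Diff libraries. As deposited, 76.7% of tested genes with such an UnDiff mean were called higher, and that share was not computed on the rescaled values. The same 8 genes were called higher after rescaling without the most abundant RNAs, against 22.4% of 13787 genes, with adjusted p of 0.00458 for HPGDS and 0.0269 for PLA2G4A. PTGS2 and PLA2G7 were below the filter on both scales. The size of a difference also depends on the pseudocount, since UnDiff values lie near 0. With 0.1 in place of 1 the log2 difference was 4.67 for ALOX5, 5.60 for ALOX5AP, 5.49 for PTGS1, 4.54 for TBXAS1 and 0.83 for LTA4H, and 5.44 and 7.39 for COTL1 and PTAFR of the related genes, so the order of these genes by size of difference changes with it.

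**Figure D4:**
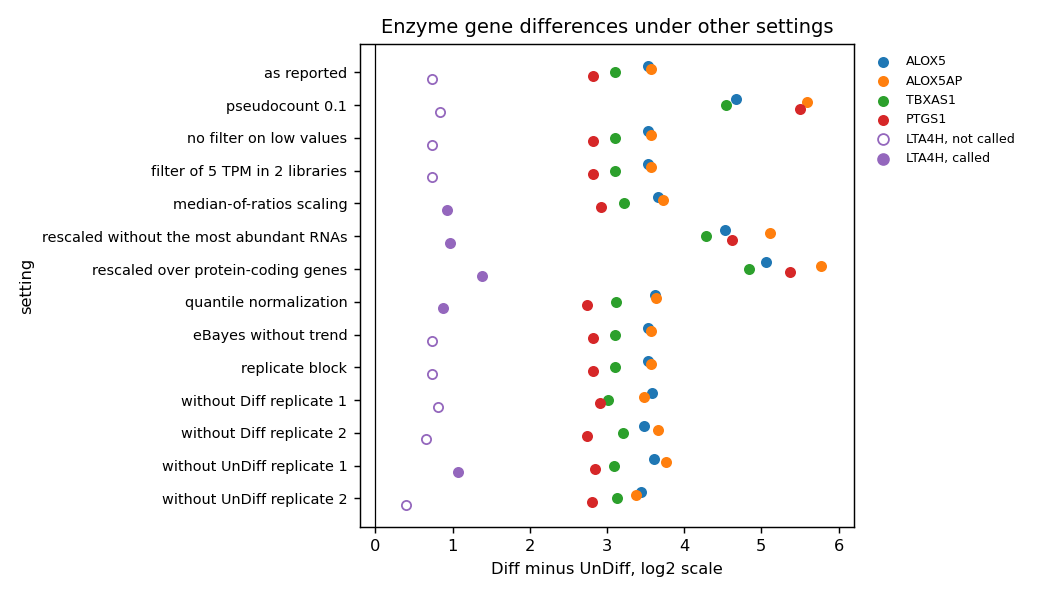
Diff minus UnDiff difference (log2 scale) of 5 enzyme genes as reported and under 13 other settings (left out is the test for a log2 change beyond 1, which has the reported values), filled where the adjusted p was below 0.05. ALOX5, ALOX5AP, TBXAS1 and PTGS1 are filled at 2.74 or more in each, whereas LTA4H lies between 0.39 and 1.38 and is filled under 5. LTC4S is left out because it was listed at 0 in UnDiff cells.

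Other genes of the pathway, taken from 5 lists, went both ways. Of 79 listed genes, 27 were tested, 8 were called higher (18.6% of all tested genes were), 6 lower (22.8%) and 13 were not called, with a median log2 difference of 0.32 over the 27 against -0.14 over all tested genes. Of the 8 called higher, PLA2G15, DPEP2, COTL1, LPCAT2 and PTAFR averaged below 1 TPM in UnDiff cells. Among all tested genes with such an UnDiff mean, 76.7% were called higher. Without Diff replicate 1 or without Diff replicate 2 the lone Diff library is assumed to vary like the UnDiff pair. Most of these related calls were then lost, all the lower ones among them. Over all tested genes, too, lower calls fell more than higher ones, so this loss is not particular to the pathway. The calls that remained were COTL1, DPEP2, LPCAT2 and PTAFR. All averaged below 1 TPM in UnDiff cells, as did PLA2G15, whose call was lost. Values this low can spread little on the log2(TPM + 1) scale. The part this had in the calls that remained was not tested. In these fits the log2 difference was 2.59 and 2.45 for PLA2G15, against 2.52 with all libraries. For AKR1B1 it was -1.75 and -1.99, against -1.87.

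**Figure D5:**
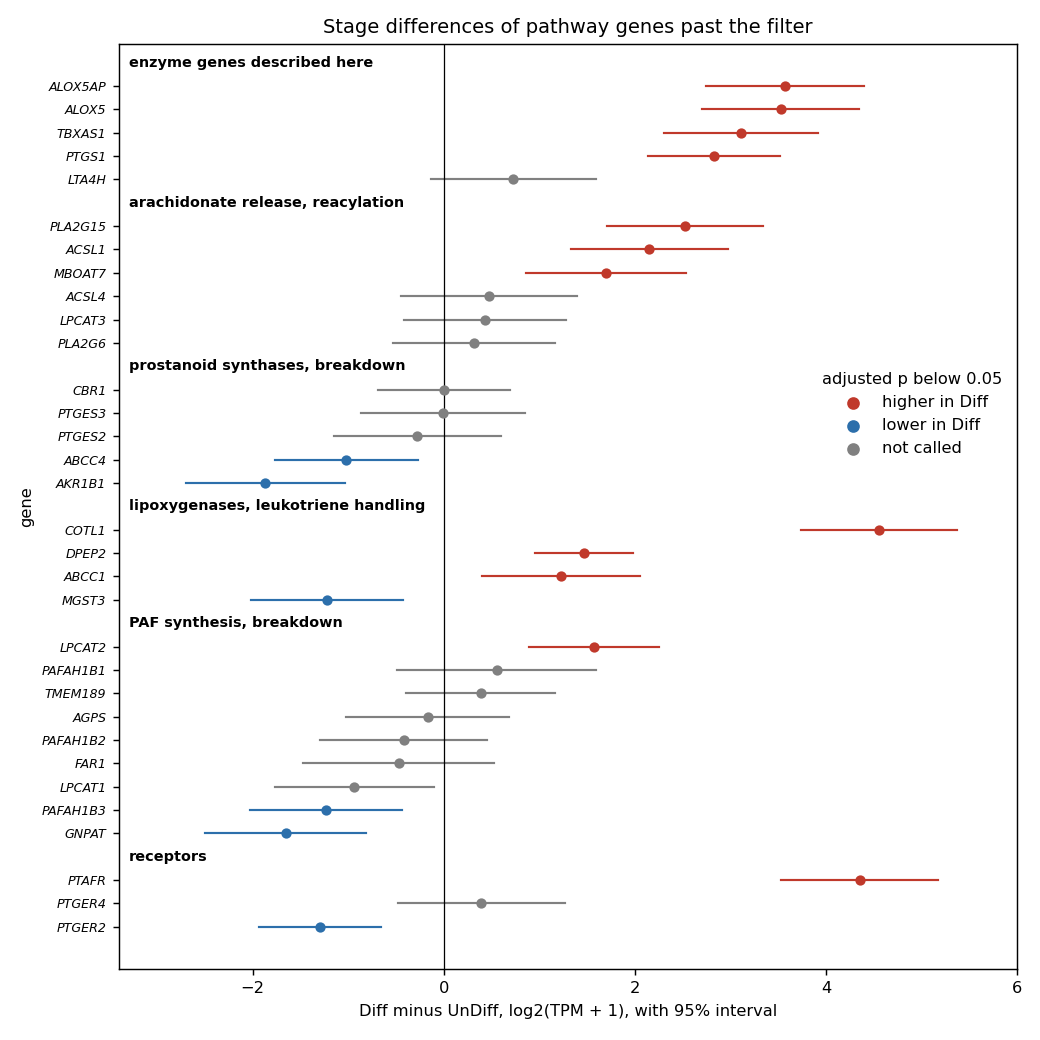
Diff minus UnDiff difference on the log2(TPM + 1) scale, with its 95% interval, for the tested enzyme genes and the 27 tested genes of 5 related lists, coloured by call. COTL1 and PTAFR lie at 4.55 and 4.35 with the pseudocount of 1 used here, and AKR1B1 lies lowest at -1.87. LTC4S is left out because it was listed at 0 in UnDiff cells.

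Among 23 genes of arachidonate release and reacylation, 6 were tested. Of these, 3 were higher (18.6% of all tested genes were), 0 lower (22.8%) and 3 not called. The count of lower genes was 0 also at an unadjusted p below 0.05 (limma). PLA2G15, the lysosomal phospholipase A2, averaged 10.2 ± 0.799 TPM in Diff and 0.955 ± 0.134 TPM in UnDiff cells (SD, n = 2 each; log2 difference 2.52, limma adjusted p = 0.000163). Its level was 26.8 and 31.7 times that of PLA2G4A in the Diff libraries and 15.0 and 14.3 times in the UnDiff libraries. ACSL1, an acyl-CoA synthetase, averaged 9.95 ± 0.219 TPM in Diff and 1.47 ± 0.226 TPM in UnDiff cells (log2 difference 2.15, adjusted p = 0.00055). MBOAT7, which returns arachidonate to phosphatidylinositol, averaged 8.69 ± 0.389 TPM in Diff and 2.02 ± 0.629 TPM in UnDiff cells (log2 difference 1.70, adjusted p = 0.00334). ACSL4, which prefers arachidonate, averaged 7.97 ± 1.82 TPM in Diff and 5.75 ± 3.05 TPM in UnDiff cells and was not called (adjusted p = 0.404). The secreted phospholipases PLA2G2A, PLA2G3, PLA2G10 and PLA2G2E were listed at 0 in all 4 libraries.

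Of 14 genes of prostanoid synthesis and breakdown, 5 were tested. Among these, 0 were higher (18.6% of all tested genes were), 2 lower (22.8%) and 3 not called. The count of higher genes was 0 also at an unadjusted p below 0.05 (limma). AKR1B1, an aldose reductase with prostaglandin F synthase activity, averaged 3.75 ± 0.552 TPM in Diff and 16.5 ± 3.88 TPM in UnDiff cells (log2 difference -1.87, limma adjusted p = 0.00171). ABCC4, a prostaglandin exporter, averaged 0.735 ± 0.0212 TPM in Diff and 2.72 ± 1.71 TPM in UnDiff cells (log2 difference -1.02, adjusted p = 0.0313). PTGES3, the co-chaperone p23 with prostaglandin E synthase activity, averaged 8.81 ± 0.262 TPM in Diff and 9.15 ± 3.43 TPM in UnDiff cells (adjusted p = 0.991; 95% interval of the log2 difference -0.86 to 0.85). The inducible synthase PTGES had 0.25 and 0.19 TPM in Diff cells and was listed at 0 in UnDiff cells, and HPGD, which inactivates prostaglandins, stayed at or below 0.20 TPM in every library.

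Of 16 genes of other lipoxygenases and leukotriene handling, 4 were tested. Among these, 3 were higher (18.6% of all tested genes were) and 1 lower (22.8%). COTL1 and DPEP2 averaged below 1 TPM in UnDiff cells, and 76.7% of tested genes with such a mean were called higher. COTL1, an actin-binding protein that also binds and aids 5-lipoxygenase, averaged 44.0 ± 5.15 TPM in Diff and 0.910 ± 0.0566 TPM in UnDiff cells (log2 difference 4.55, limma adjusted p = 2.15e-06). ABCC1, the exporter of the first cysteinyl leukotriene, averaged 5.72 ± 0.976 TPM in Diff and 1.87 ± 0.354 TPM in UnDiff cells (log2 difference 1.23, adjusted p = 0.0208). DPEP2, a dipeptidase of a later cysteinyl step, averaged 1.97 ± 0.849 TPM in Diff and 0.055 ± 0.0778 TPM in UnDiff cells (log2 difference 1.47, adjusted p = 0.000288). MGST3, a microsomal glutathione transferase of the LTC4S family, averaged 1.26 ± 0.587 TPM in Diff and 4.19 ± 0.410 TPM in UnDiff cells (log2 difference -1.23, adjusted p = 0.0173). The lipoxygenases ALOX12, ALOX12B, ALOX15, ALOX15B and ALOXE3 were at or below 0.12 TPM in every library.

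Of 10 genes of PAF synthesis and breakdown, 9 were tested. Among these, 1 was higher (18.6% of all tested genes were), 2 lower (22.8%) and 6 not called. LPCAT2, the acetyltransferase that makes PAF in inflammatory cells, had 2.21 and 4.15 TPM in Diff cells, against 0.24 and 0.51 TPM in UnDiff cells (log2 difference 1.57, limma adjusted p = 0.00131). GNPAT, which starts ether lipid synthesis in peroxisomes, averaged 3.12 ± 0.0141 TPM in Diff and 12.2 ± 3.51 TPM in UnDiff cells (log2 difference -1.66, adjusted p = 0.00411). PAFAH1B3, a catalytic subunit of the intracellular PAF hydrolase, averaged 1.44 ± 0.0919 TPM in Diff and 4.76 ± 0.841 TPM in UnDiff cells (log2 difference -1.23, adjusted p = 0.0166). PAFAH1B2, the other catalytic subunit, averaged 9.40 ± 2.65 TPM in Diff and 13.0 ± 4.43 TPM in UnDiff cells and was not called (adjusted p = 0.438).

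Of 16 receptors of these lipids, 3 were tested. Among these, 1 was higher (18.6% of all tested genes were), 1 lower (22.8%) and 1 not called. PTAFR, the PAF receptor, had 18.11 and 21.62 TPM in Diff cells, against 0.04 and 0 TPM in UnDiff cells (log2 difference 4.35 ± 0.379, SE; limma adjusted p = 3.2e-06). PTGER2, a prostaglandin E2 receptor, had 0.21 and 0.53 TPM in Diff cells, against 3.26 and 1.61 TPM in UnDiff cells (log2 difference -1.29, adjusted p = 0.00336). PTGER4, another receptor of that lipid, had 2.76 and 5.44 TPM in Diff cells, against 2.93 and 2.58 TPM in UnDiff cells, and was not called (adjusted p = 0.471). Receptors of the other products were low, and LTB4R, for leukotriene B4, had 1.41 and 0.72 TPM in Diff cells, against 0.68 and 0.37 TPM in UnDiff cells. CYSLTR1 had 0.47 and 0.30 TPM in Diff cells, against 0.03 and 0 TPM in UnDiff cells. PTGDR2 and TBXA2R were at or below 0.05 TPM in all 4 libraries.

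Marker genes were read beside these results because mast cells, platelets and granulocytes are known sources of the same lipids. All 10 macrophage and monocyte markers were called higher, summing to 803 and 891 TPM in Diff and 8.32 and 6.34 TPM in UnDiff cells, with CD68 the most abundant in Diff cells at 196.74 and 217.12 TPM in Diff and 0.60 and 0.27 TPM in UnDiff cells. Of 10 B cell markers 9 were tested and called lower, summing to 17.3 and 16.1 TPM in Diff and 445 and 267 TPM in UnDiff cells, with DNTT the most abundant in UnDiff cells at 1.68 and 1.83 TPM in Diff and 188.10 and 107.93 TPM in UnDiff cells. Over all tested genes 18.6% were called higher and 22.8% lower. Every macrophage and monocyte marker but CSF1R averaged below 1 TPM in UnDiff cells. Of tested genes with such a mean, 76.7% were called higher. By summed TPM, macrophage and monocyte markers were high in the Diff libraries and B cell markers in the UnDiff libraries. The T cell marker TRAC was also high in the UnDiff libraries, as given below. The 10 mast cell and basophil markers summed to 0.42 and 0.76 TPM in Diff and 0.42 and 0.27 TPM in UnDiff cells, none was tested, and TPSB2, CMA1 and CLC were at 0 in all 4 libraries.

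The 10 neutrophil and eosinophil markers summed to 0.84 and 0.28 TPM in Diff and 0.26 and 0.08 TPM in UnDiff cells, with ELANE, AZU1, PRTN3, PRG2 and SIGLEC8 at 0 in all 4. Of the 10 megakaryocyte and platelet markers, PPBP, which monocytes also express, was called higher together with PTGS1 and TBXAS1, at 22.55 and 23.69 TPM in Diff and 0.09 and 0 TPM in UnDiff cells. The list summed to 23.27 and 24.01 TPM in Diff and 0.70 and 1.30 TPM in UnDiff cells, whereas PF4 was at 0 and 0.14 TPM in Diff and 0 in UnDiff cells and GP1BA and GP6 were at 0 throughout. The part of platelet markers in these results was not tested. Of 9 T and NK cell markers with a row, TRAC was called lower at 3.82 and 6.61 TPM in Diff and 109.90 and 51.47 TPM in UnDiff cells, while CD3D, CD3E and GNLY were at 0 in all 4.

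The genes whose values lay closest to the 3 most abundant enzymes of Diff cells were found by the smallest value of the largest log2(TPM + 1) difference over the 4 libraries. For ALOX5 this was HLA-DMB, an MHC class II peptide-loading gene, with a largest difference of 0.104. For ALOX5AP it was TLR4, the lipopolysaccharide receptor, with 0.142. For TBXAS1 it was TMEM106A, with 0.137. With 4 libraries in 2 stages, such closeness says little beyond a like level at each stage.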

How the data were processed

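The deposited values are TPM, made by the authors with Trimmomatic, STAR and RSEM per the submitters' processing notes, from stranded total RNA libraries per the labels' protocols. Versions, settings, annotation and genome build are not given here in the labels or headers. TPM keeps no depth, so no counting error or detection limit is given, and an exact 0 may be a failed estimate. Columns were assigned by sample title, and 0 columns were left out. The stage comparison used limma 3.58.1 (R 4.3.3) on log2(TPM + 1) with a mean-variance trend (two-sided, 2 residual and 10.9 prior degrees of freedom), over genes reaching 1 TPM in 2 or more libraries. The fit was tested on simulated data. Fold changes on this scale understate changes of low genes. With 2 libraries a stage, no exact permutation p can be below 0.333. Gene types came from GENCODE release 29, which held 58039 of 58302 IDs. Genes named are all 10 members, called genes of each list (at most 5 a direction), the most abundant tested gene not called, receptors of the products and leading markers. Genes named beyond these were picked after their values had been seen. Members and lists were chosen with earlier results of these data known. In all, 14 alternatives were run.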

Additional observations from a re-analysis of the deposited data

How the results depend on the processing

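As reported, 5 of the 10 enzyme genes were called higher and 0 lower. All 5 averaged below 1 TPM in UnDiff cells and passed the filter through the Diff libraries. Of tested genes with such an UnDiff mean, 76.7% were called higher, a share not computed under the alternatives. Where a Diff library was left out, the spread within a stage came from the UnDiff pair alone, near 0 for these genes. ALOX5, ALOX5AP, LTC4S, PTGS1 and TBXAS1 were called higher under all 14 alternatives, and the count of enzyme genes called lower was 0 in each (0 also at an unadjusted p below 0.05). The highest adjusted p was 0.0224 for ALOX5 and 0.0219 for LTC4S. LTA4H was called under 5 alternatives. Rescaling without the most abundant RNAs called 8 enzyme genes and 15 of 43 tested related genes higher, against 22.4% of all genes tested there. Rescaling over protein-coding genes called 8 enzyme genes and 25 of 45 tested related genes higher, against 34.3%. More genes passed the filter in both, since 27 related genes were tested as reported. In all, 4216 genes were called (1890 higher, 2326 lower), and after protein-coding rescaling 4102 were higher and 2153 lower. With no filter on low values 1260 of 29186 genes were called. Of 73 related genes then tested, 4 were higher and 0 lower, 6 being lower at an unadjusted p below 0.05 (limma). With a filter of 5 TPM 2436 of 4511 tested genes were called, and 2 of 13 tested related genes were lower. Against a log2 fold change of 1 the test called 1305 genes, and 4 related genes higher and 0 lower (1 lower unadjusted). Leaving out each library in turn gave 1271 to 5652 calls over all genes, 5 to 6 enzyme genes higher and 0 lower, and 4 to 11 related genes higher and 0 to 9 lower. The cause of these moves was not tested, beyond the changed number of genes or libraries. The replicate block left 5 enzyme genes, 8 related genes higher, 6 related genes lower and 3766 genes in all called. Same-numbered libraries share only a number, since nothing in the labels pairs them, and their deviations correlated at r = -0.0237 over genes. Depth is unknown, which leaves the values below 1 TPM of PTGS2, PLA2G4A, PLA2G7 and HPGDS without a counting error.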
